A study of Drosophila melanogaster with 6 samples.

Results

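The nuclear-encoded subunits of the mitochondrial respiratory chain and of ATP synthase were followed in Drosophila melanogaster embryos laid by mothers with 6 or with 2 copies of the bicoid gene (bcd). Members were the probe sets whose only annotated gene symbol starts with 1 of 5 prefixes: ND- for complex I, Sdh for complex II, UQCR for complex III, COX for complex IV and ATPsyn for complex V. This rule took 81 probe sets of 73 genes, out of 18769 probe sets on the array that are not controls. It used names only and no measured value. Of the 81, 61 probe sets (53 genes) had a present call, the authors' mark of a detected transcript, on at least 3 of 6 arrays and were tested among 10137 probe sets that passed this filter.

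Complexes I and II feed electrons from NADH and succinate into the ubiquinone pool, complex III passes them to cytochrome c, and complex IV hands them to oxygen. Complexes I, III and IV pump protons out of the mitochondrial matrix, and complex V, the ATP synthase, lets them flow back and makes ATP. Most subunits are encoded in the nucleus and imported, while a core set is encoded by mitochondrial DNA, and the early embryo lives on mitochondria and RNA that the mother placed in the egg.

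In the 6xbcd group, TT16 males were crossed to bcd+t8 females, and in the 2xbcd group, the control, TT16 males were crossed to TT16 females. Both groups thus had fathers of the TT16 stock, and the mothers' stock and their number of bcd copies differed together, so these cannot be told apart. The labels say nothing further of the TT16 and bcd+t8 genotypes. Eggs were collected over 90 min and kept for 8 h at 25 degrees, to stages 12 to 13, and total RNA of more than 100 dechorionated embryos was pooled for each of 3 arrays per group. The design text calls the arrays paired by replicate number and the RNA samples independent. Because each sample is a pool of whole embryos, fewer cells of a type and less RNA per cell cannot be told apart in any value below.

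The maternal gene itself stood as the labels say: bcd had signals of 2335, 1497 and 1375 in 6xbcd embryos, against 861, 546 and 301.0 in 2xbcd embryos. Its fitted log2 change was 1.66 (SE 0.15, adjusted p = 0.0189 by limma), and the adjusted p was 0.118 without the replicate block, 0.140 without an intensity trend, and 0.0760 or 0.0984 when replicate 1 or 2 was left out. Between 9934 and 10474 probe sets had a present call on the 6xbcd arrays, and between 9697 and 10311 on the 2xbcd arrays. All 6 arrays had been scaled by the authors to a trimmed mean signal of 500, so the arrays share 1 overall level by construction. The number of arrays, 3 per group, limits the precision of every comparison.

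The standard subunits were detected almost throughout, and most of their paralogues were not. Among 59 subunit probe sets of 51 genes, 57 were called present on all 6 arrays. The exceptions were a dim probe set of COX7B, present on 4 arrays, and the only probe set of ND-B8, a complex I accessory subunit, present on none. In contrast, none of the 21 probe sets of paralogues, genes whose symbols end in L, L1 or L2, was present on all 6 arrays, and 16 were absent on every array. The remaining member, Sdhaf3, an assembly factor of complex II, was present on all 6.

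**Figure D1:**
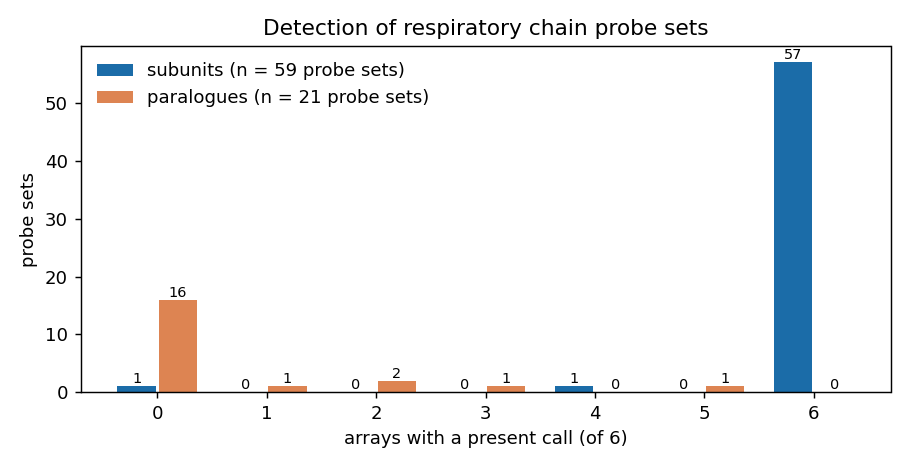
Number of probe sets (vertical axis) by the number of arrays, out of 6, with a present call (horizontal axis), for subunits and for paralogues of the respiratory chain and ATP synthase. The subunits stand almost entirely at 6 arrays (57 of 59) and the paralogues mostly at 0 (16 of 21).

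Only 2 paralogue probe sets had enough present calls to be tested. ATPsynepsilonL, a relative of the epsilon subunit of the ATP synthase stalk, was present on 3 of 3 6xbcd arrays and 2 of 3 2xbcd arrays. COX4L, a relative of complex IV subunit 4, was present on 1 of 3 6xbcd arrays and 2 of 3 2xbcd arrays. COX6AL and ND-B14.5AL each had a present call on 1 array of each group, and ND-51L2 on 1 6xbcd array. The other 16 were ND-20L, ND-24L and ND-51L1 of complex I, SdhAL, SdhBL and SdhCL of complex II, UQCR-11L and UQCR-14L of complex III, COX5BL, COX6AL2, COX6CL, COX7AL and COX7AL2 of complex IV, and ATPsynCF6L, ATPsynGL and ATPsynbetaL of complex V. The signals of all 20 untested members lay between 0.9 and 51.5, and an absent call at such signals says that the transcript was not detectable by these probes. For ND-B8 the signals were 3.9, 10.4 and 3.3 in 6xbcd embryos and 20.7, 27.6 and 14.9 in 2xbcd embryos, all of them absent calls, so no fold is given.

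None of the 61 tested probe sets passed the test for a difference between 6xbcd and 2xbcd embryos. The test was limma on log2(signal + 16) with the replicate number as a block, two-sided, with Benjamini-Hochberg adjustment over all 10137 probe sets at 0.05. It called 134 probe sets in all (1.32%), 76 higher (0.75%) and 58 lower (0.572%) in 6xbcd embryos. The lowest adjusted p of a member was 0.0547, for ATPsyndelta, and the highest was 0.986. At an adjusted p of 0.1 the call rate over all probe sets was 2.44%, and ATPsyndelta alone of the 61 was within it. At an unadjusted p under 0.05, 6 members were lower in 6xbcd embryos (9.84%, against 7.32% of all tested probe sets) and 0 were higher (against 7.59%).

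The fitted changes were small and stood slightly below 0. Of the 61 probe sets, 23 had a positive log2 change (37.7%, against 52.7% of all tested probe sets) and 38 a negative one. Their median was -0.05, with a range of -0.67 to 0.42, while the median over all tested probe sets was 0.01. The median size of a change, regardless of sign, was 0.078 for the members and 0.127 over all. For 53 of the 61 members (86.9%) the 95% interval of the log2 change lay wholly within 0.5 of 0, against 56.2% of all tested probe sets, and for 24 (39.3%) within 0.25, against 16.7%. Within 1 of 0 lay 59 (96.7%), against 87.6%. The median SE of the members was 0.071, against 0.114 over all, at a higher median log2 signal of 11.6 against 9.09. This SE comes from limma with an intensity trend and so depends partly on the signal. The SE and the intervals built on it are therefore not a direct measure of scatter. The median SD between arrays was also lower for the members, at 0.111 in 6xbcd and 0.092 in 2xbcd embryos, against 0.153 and 0.165 over all.

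**Figure D2:**
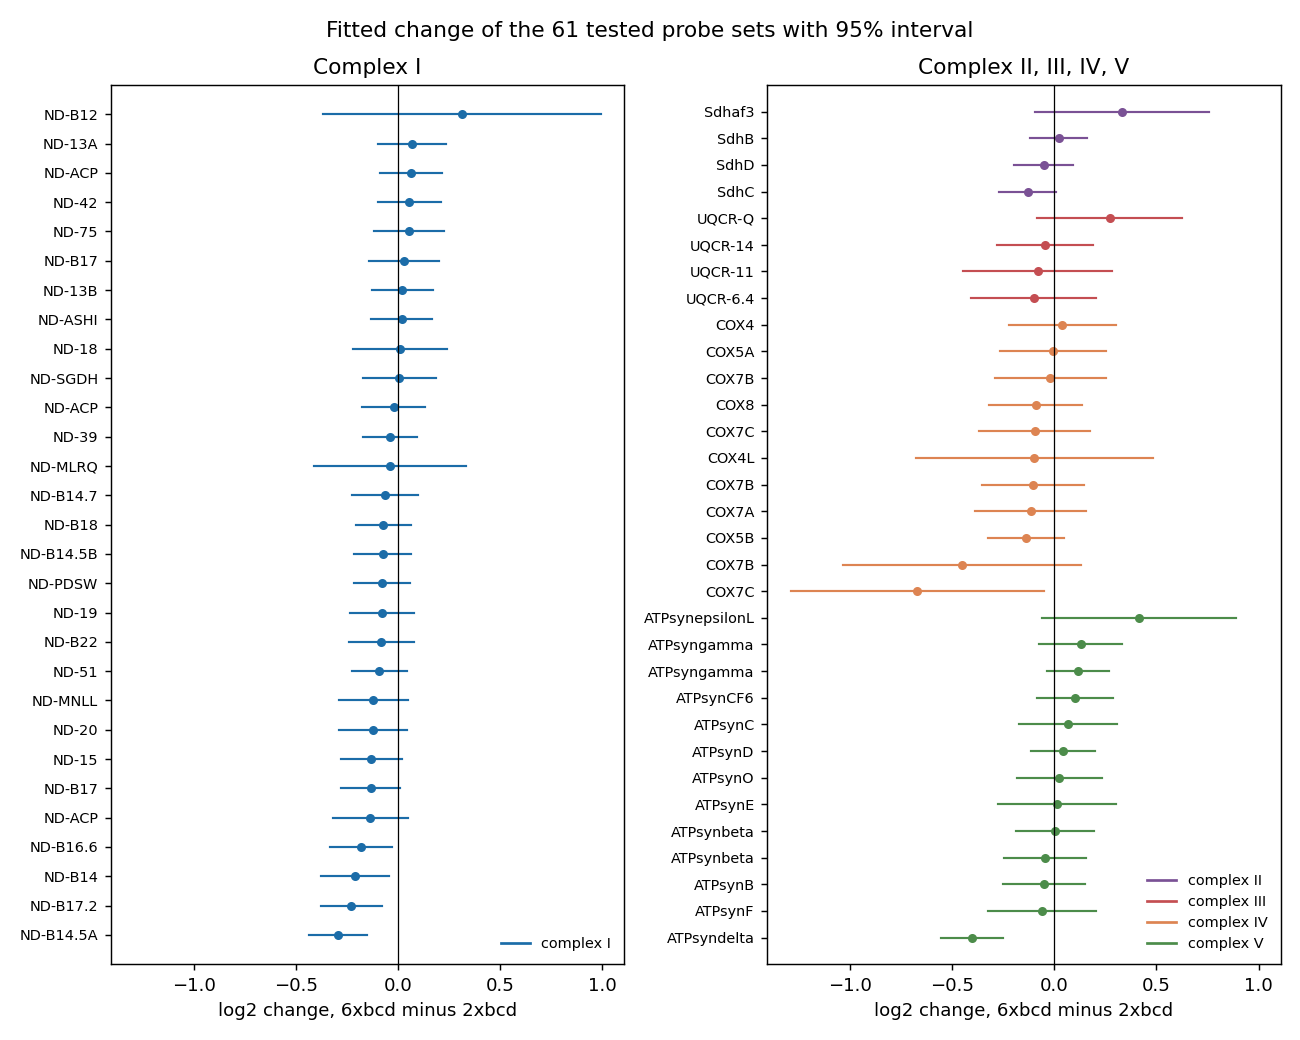
Fitted log2 change, 6xbcd minus 2xbcd (horizontal axis), of each of the 61 tested probe sets, with its 95% interval as a bar; complex I is on the left and complexes II to V on the right, and a gene with several probe sets appears once for each. Most intervals cross 0, and the lowest changes are a dim probe set of COX7C at -0.67, a dim probe set of COX7B at -0.45, and ATPsyndelta at -0.40. The bright probe sets are at -0.10 for COX7C, and at -0.10 and -0.02 for COX7B.

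Separation of the arrays was uneven in direction. In 13 members every 6xbcd signal was below every 2xbcd signal (21.3%, against 8.68% of all tested probe sets), and in 2 every 6xbcd signal was above (3.28%, against 7.38%). The 13 were ND-B14.5A, ND-B17.2, ND-B16.6, ND-15, ND-PDSW, ND-B14.5B and 1 probe set each of ND-B17 and ND-ACP in complex I, SdhC in complex II, COX5B and 1 probe set each of COX7B and COX7C in complex IV, and ATPsyndelta in complex V. The 2 were ATPsynepsilonL and 1 probe set of ATPsyngamma. These probe sets were picked out by their separation, which is the contrast that was tested, and none of them passed the test. When the arrays of replicate 1 were left out, the count of members lower without overlap was 31 (50.8%, against 20.7% of all tested probe sets). The excess was smaller without replicate 2, at 15 members (24.6%, against 17.4%), and without replicate 3, at 17 (27.9%, against 16.9%). With all arrays, the count was 11 with quantile normalization (against 9.84% of all tested probe sets) and 14 with median scaling (against 9.96%). These alternatives were added after seeing the data.

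Complex I had 29 tested probe sets of 26 genes, 10 with a positive and 19 with a negative change, and a median of -0.07, which was -0.03 without replicate 2. The lowest p belonged to accessory subunits, which surround the catalytic core and are needed for its assembly or stability. ND-B14.5A, the counterpart of human NDUFA7, had signals of 1921, 1705 and 1786 in 6xbcd embryos, against 2257, 2198 and 2174 in 2xbcd embryos. The groups did not overlap and differed by -0.29 on the log2 scale (SE 0.057, 95% interval -0.43 to -0.15, adjusted p = 0.106 by limma). ND-B17.2, the counterpart of NDUFA12, had signals of 2786, 2401 and 2355 in 6xbcd embryos and 3077, 2833 and 2917 in 2xbcd embryos. Its lowest 2xbcd signal was just above its highest 6xbcd signal, that of replicate 1, and its log2 change was -0.23 (SE 0.060, adjusted p = 0.184 by limma).

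ND-B14, the counterpart of NDUFA6, had signals of 4402, 3817 and 3729 in 6xbcd embryos, against 4784, 4380 and 4643 in 2xbcd embryos. Replicate 1 of 6xbcd lay within the 2xbcd range and the other two below it, with a log2 change of -0.21 ± 0.066 (SE, with adjusted p = 0.248 by limma). ND-B16.6, the counterpart of NDUFA13, had signals of 2576, 2594 and 2694 in 6xbcd embryos, against 2924, 3129 and 2875 in 2xbcd embryos. These did not overlap, with a log2 change of -0.18 ± 0.061 (SE, with adjusted p = 0.273 by limma). ND-15, a small accessory subunit, had a log2 change of -0.13 with an adjusted p of 0.387.

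The core subunits ND-51 and ND-75 take part in the oxidation of NADH. ND-51, which binds NADH and flavin, had signals of 2463, 2684 and 2453 in 6xbcd embryos and 2649, 2784 and 2655 in 2xbcd embryos. The ranges overlapped, although each 6xbcd array was below the 2xbcd array of its pair, with a log2 change of -0.09 (adjusted p = 0.487 by limma). ND-75, the iron-sulphur subunit next to it, had signals of 915, 1078 and 1027 in 6xbcd embryos and 948, 980.0 and 974 in 2xbcd embryos. The 2xbcd values lay inside the 6xbcd range, with a log2 change of 0.05 (adjusted p = 0.760 by limma). The widest interval in complex I belonged to the accessory subunit ND-B12, with signals of 174, 110.1 and 171 in 6xbcd embryos, against 152, 132 and 77.5 in 2xbcd embryos, and a log2 change of 0.31 (95% interval -0.37 to 0.99).

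**Figure D3:**
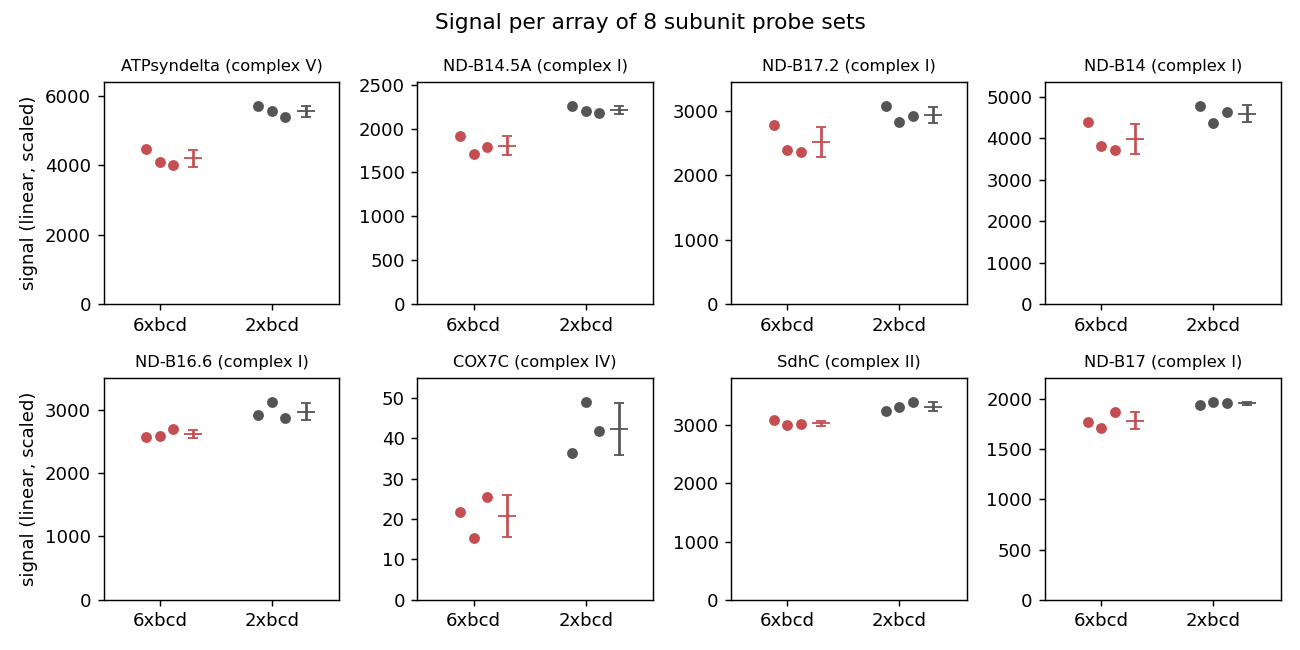
Signal per array (linear scale, vertical axis from 0) of 8 probe sets in 6xbcd embryos (left) and 2xbcd embryos (right), chosen as the subunit probe sets with the smallest p; points are arrays in the order of replicates 1 to 3 and bars are means with SD (n = 3 each). All 8 have a lower mean in 6xbcd embryos, ND-B14 is the only one in which the groups overlap, and the largest gap next to its spread is that of ATPsyndelta, 4199 ± 249 against 5552 ± 163.

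Complex II, succinate dehydrogenase, is shared by the respiratory chain and the citric acid cycle. Its iron-sulphur subunit SdhB had signals of 2171, 2211 and 2113 in 6xbcd embryos, against 2145, 2265 and 1990.1 in 2xbcd embryos. These ranges overlapped, and the log2 change of 0.02 had a 95% interval of -0.12 to 0.16. Of the membrane anchors, SdhC had signals of 3085, 3004 and 3012 in 6xbcd embryos and 3252, 3308 and 3402 in 2xbcd embryos. Here the groups did not overlap, and the log2 change was -0.13 (SE 0.056, adjusted p = 0.366 by limma). The other anchor, SdhD, overlapped at a log2 change of -0.05 (adjusted p = 0.718). Sdhaf3, which helps insert the iron-sulphur clusters, had signals of 194, 198 and 162 in 6xbcd embryos and 168, 126 and 138 in 2xbcd embryos, with overlap and a log2 change of 0.33 (SE 0.17, adjusted p = 0.434).

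Complex III was represented by 4 probe sets, 1 with a positive and 3 with a negative change. UQCR-Q, a small subunit of the complex, had signals of 1265, 1076 and 1077 in 6xbcd embryos, against 877, 783 and 1203 in 2xbcd embryos. Replicate 3 of 2xbcd lay within the 6xbcd range and the other two below it, with a log2 change of 0.27 ± 0.14 (SE, with adjusted p = 0.439 by limma). Without replicate 3 its log2 change was 0.49 and its adjusted p 0.0204, so its call depends on that pair of arrays. UQCR-6.4, UQCR-11 and UQCR-14 overlapped between the groups, with log2 changes of -0.10, -0.08 and -0.05 and adjusted p of 0.747 and above.

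Complex IV had 1 positive and 10 negative changes among 11 tested probe sets and a median of -0.10. In pair 1, 7 of the 11 were positive, and the median was -0.17 without replicate 1, -0.04 without replicate 2 and -0.06 without replicate 3. COX5B, a nuclear-encoded subunit that faces the matrix, had signals of 7966, 7624 and 8131 in 6xbcd embryos, against 8730, 8716 and 8644 in 2xbcd embryos. The groups did not overlap, and the log2 change was -0.14 (SE 0.074, adjusted p = 0.448 by limma). COX4, another nuclear-encoded subunit, had signals of 13081, 11084 and 9662 in 6xbcd embryos and 10923, 11424 and 10338 in 2xbcd embryos, with a log2 change of 0.04 (95% interval -0.22 to 0.30). The 6xbcd arrays spanned the whole 2xbcd range. COX5A, COX7A and COX8 overlapped too, with log2 changes of -0.01, -0.12 and -0.09 and adjusted p between 0.666 and 0.986.

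The largest changes in complex IV came from dim probe sets, and the other probe sets of the same genes had smaller changes. A probe set of COX7C had signals of 21.7, 15.2 and 25.5 in 6xbcd embryos, against 36.3, 49.1 and 41.8 in 2xbcd embryos, without overlap, and a log2 change of -0.67 (SE 0.25, adjusted p = 0.306 by limma). The other probe set of COX7C had signals of 9365, 7824 and 7833 in 6xbcd embryos, against 8342, 9483 and 8865 in 2xbcd embryos, which overlap, and a log2 change of -0.10 (adjusted p = 0.722). A probe set of COX7B had signals of 12.5, 15.8 and 26.0 in 6xbcd embryos, where it was present on 1 of 3 arrays, against 28.0, 27.9 and 34.5 in 2xbcd embryos, where it was present on 3 of 3. Its log2 change was -0.45 (SE 0.23, adjusted p = 0.434 by limma), while the other 2 probe sets of COX7B had changes of -0.10 and -0.02. It entered the test mainly through its 2xbcd calls, and at signals this close to the offset of 16 the scale understates a fold. COX4L overlapped, at signals of 24.4, 41.4 and 35.6 in 6xbcd embryos and 26.7, 36.0 and 49.9 in 2xbcd embryos.

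Complex V had 9 positive and 4 negative changes among 13 probe sets, with a median of 0.03, and also held the lowest p of all tested members. That median was -0.02 without replicate 1, 0.07 without replicate 2 and 0.05 without replicate 3. ATPsyndelta, a subunit of the rotating central stalk that links the membrane ring to the catalytic head, had signals of 4482, 4095 and 4018.5 in 6xbcd embryos, against 5708, 5565 and 5383 in 2xbcd embryos. The groups stood well apart, with the highest 6xbcd array below the lowest 2xbcd array. Its means were 4199 ± 249 in 6xbcd embryos and 5552 ± 163 in 2xbcd embryos (SD, n = 3 each), a log2 change of -0.40 (SE 0.061, 95% interval -0.56 to -0.25, or -24.4%). The adjusted p was 0.0547 by limma, just above the threshold of 0.05 and so not called, with a range of 0.0181 to 0.458 over the alternatives. With quantile normalization, an offset of 64 or a present call on all arrays it passed at 0.0181, 0.0499 and 0.0346, and without replicate 3 at 0.0478. It did not pass without the replicate block, with median scaling, with an offset of 1 or with no filter. Nor did it pass without an intensity trend, or without replicate 1 or replicate 2.

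Another central-stalk subunit, ATPsyngamma, lay on the opposite side of 0. A probe set of ATPsyngamma had signals of 4249, 3805 and 3827 in 6xbcd embryos, against 3705, 3667 and 3582 in 2xbcd embryos, without overlap. Its log2 change was 0.12 (SE 0.061, adjusted p = 0.441 by limma), and the other probe set of the gene, with overlapping groups, had 0.13 (adjusted p = 0.507). ATPsynepsilonL had signals of 120.4, 137 and 129.7 in 6xbcd embryos, against 69.6, 105.6 and 106.8 in 2xbcd embryos. These did not overlap either, and the log2 change of 0.42 had a 95% interval of -0.06 to 0.89 (adjusted p = 0.387).

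The catalytic and membrane parts of the ATP synthase overlapped between the groups. The catalytic subunit ATPsynbeta had log2 changes of 0.00 and -0.04 in its 2 probe sets, with adjusted p of 0.986 and 0.840. ATPsynC, which forms the rotating ring in the membrane, had signals of 11976, 10647 and 9558 in 6xbcd embryos, against 10093, 10850.3 and 9708 in 2xbcd embryos. The 6xbcd arrays held the highest and the lowest of these values, and the log2 change was 0.07 (95% interval -0.17 to 0.31). ATPsynCF6 and ATPsynD of the peripheral stalk had log2 changes of 0.10 and 0.04, with adjusted p of 0.567 and 0.790. The remaining probe sets, of ATPsynB, ATPsynE, ATPsynF and ATPsynO, had changes between -0.06 and 0.03.

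Where a gene had several tested probe sets, they did not always point the same way. Besides COX7B and COX7C above, ND-B17 had log2 changes of -0.13 without overlap (adjusted p = 0.366) and 0.03 with overlap (adjusted p = 0.874). ND-ACP, the mitochondrial acyl carrier protein, which also serves fatty acid synthesis, had changes of -0.14, -0.02 and 0.06 in 3 probe sets. The probe set at -0.14 was lower without overlap and had an adjusted p of 0.452. These differences between probe sets of 1 gene were not tested. By the array's naming, 11 of the 61 tested probe sets hold probes that may be shared with transcripts of other genes. Those of ND-15, ATPsynC and 1 probe set of ATPsyngamma are among them. A further 11 hold probes shared by several transcripts of 1 gene.

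The replicate pairs differed in the direction of the shift. In pair 1 the median member difference, 6xbcd minus 2xbcd, was 0.057 with 35 of 61 positive, in pair 2 it was -0.093 with 13 positive, and in pair 3 it was -0.088 with 15 positive. The same medians over all tested probe sets were -0.008, 0.020 and -0.005. A total of 19 members were lower in 6xbcd embryos in all 3 pairs (31.1%, against 19.3% of all tested probe sets) and 5 were higher in all 3 (8.2%, against 19.7%). Complexes III, IV and V had positive medians in pair 1, at 0.173, 0.086 and 0.175, and negative ones in pair 2, at -0.139, -0.189 and -0.044, and in pair 3, at -0.150, -0.178 and -0.002. Complex I was the more even, at -0.032, -0.096 and -0.077.

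The 6xbcd array of replicate 1 was often the highest for these genes. Its signal was the highest of the 6 arrays in 39.3% of the tested members, against 16.4% of all tested probe sets, and in 10 of 13 probe sets of complex V (76.9%). The lowest signal lay on the 6xbcd array of replicate 2 in 27.9% of members (11.6% of all tested probe sets) and of replicate 3 in 37.7% (15.6%). Set against the mean of the 6 arrays, the median member level was 0.070, -0.063 and -0.087 on the 6xbcd arrays and 0.044, 0.053 and 0.012 on the 2xbcd arrays, on the log2 scale. The corresponding medians over all tested probe sets lay between -0.002 and 0.018. Without replicate 1 the median change of the members was -0.10, and without replicate 2 or 3 it was -0.01.

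**Figure D4:**
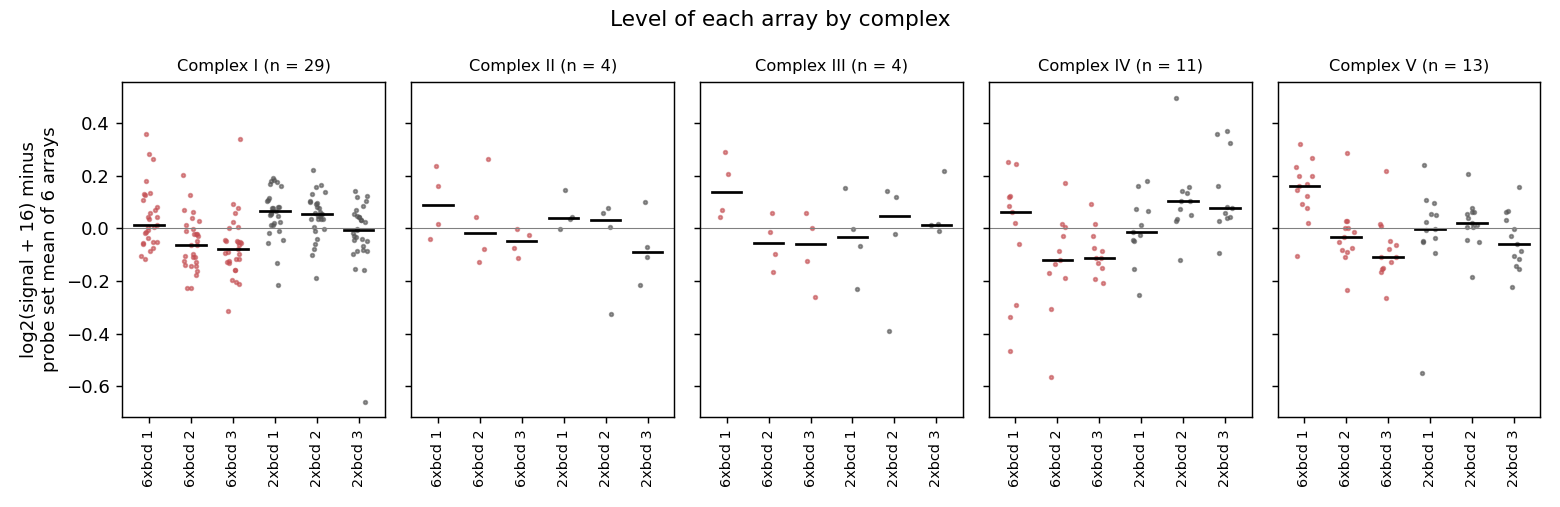
Log2(signal + 16) of each tested probe set minus its mean over 6 arrays (vertical axis) on each array (horizontal axis), with 6xbcd arrays left of 2xbcd arrays, 1 panel per complex; points are probe sets and lines are medians. In complex V the median of the 6xbcd array of replicate 1 is 0.160, against -0.032 and -0.109 on the other 6xbcd arrays and -0.001, 0.021 and -0.058 on the 2xbcd arrays.

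Genes of the X chromosome were among the members with the smallest p. ATPsyndelta, ND-B14.5A and ND-B16.6 are X-linked, and of 10 X-linked probe sets among the tested members, 3 were lower in 6xbcd embryos without overlap (30.0%, against 12.1% of the 1411 X-linked probe sets tested). Of the 51 others, 10 were lower without overlap (19.6%), against 7.98% of the 7370 autosomal probe sets tested. The median log2 change was -0.10 for the X-linked members and -0.04 for the other 51, and whether these differ was not tested. The groups overlapped in the other 7, ND-20, ND-B18, ND-MNLL, ND-75, ND-18, ND-ASHI and UQCR-14, of which the first 3 were lower in 6xbcd embryos in every pair. In all, 6 of the 10 X-linked members were lower in every pair (60.0%), against 23.3% of all X-linked probe sets tested. Among these, ND-20 was almost level in pair 3, at 2843.9 in 6xbcd and 2844.1 in 2xbcd embryos. Of the other 51 members, 13 were lower in every pair (25.5%), against 18.6% of all autosomal probe sets tested. The X-linked members were picked out with their small p in view, so these shares only describe them.

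The authors' deposited table holds a change call for each replicate pair. In it, a decrease in 6xbcd embryos was called for 0 members in pair 1 (6.18% of all tested probe sets), for 7 in pair 2 (4.27%) and for 6 in pair 3 (9.03%). ND-B14.5A, ND-B17.2 and UQCR-6.4 were called decreased in both pairs 2 and 3 in the authors' deposited table. The share of all tested probe sets called in both of these pairs was not counted. No member was called decreased in all 3 pairs, against only 1.01% of all tested probe sets, so that absence says little about the members. In pair 2 alone the calls were COX7C, COX8, ND-15 and ND-ACP, and in pair 3 alone ATPsyndelta, COX7A and ND-MLRQ, in the authors' deposited table. The COX7C call was on its bright probe set, while the dim one without overlap had no change called in any pair. The ND-ACP call was on its probe set without overlap. An increase was called in that table for 1 member, ATPsyngamma in pair 1 (4.41% of all tested probe sets), and for 0 in pairs 2 and 3 (6.76% and 13.8%). It was the ATPsyngamma probe set with overlapping groups, and the one without overlap had no change called. For ATPsyndelta the authors' deposited table gives log2 ratios of -0.3, -0.5 and -0.4, and for ND-B14.5A -0.2, -0.4 and -0.4.

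Genes of the same pathway that lie outside the name rule showed no call in either direction. Of 23 respiratory chain and ATP synthase genes listed for this purpose, 8 had a tested probe set, and 4 of their 9 probe sets had a positive change, with a median of -0.00. RFeSP, the Rieske iron-sulphur protein of complex III, had a log2 change of 0.19 in a probe set whose groups did not overlap (adjusted p = 0.239 by limma) and -0.00 in its other probe set. The complex III subunit gene ox had -0.14 without overlap (adjusted p = 0.376), and blw, the alpha subunit of ATP synthase, had 0.09 (adjusted p = 0.697). X-linked sun, the epsilon subunit, had -0.18 (adjusted p = 0.472). The subunits encoded by mitochondrial DNA were not analysed here, nor were 18 genes with the member prefixes but no probe set of their own in use, such as SdhA, UQCR-C1 and UQCR-C2.

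Assembly factors and coenzyme Q genes, 17 tested probe sets of 16 genes, had 8 positive changes, a median of -0.03 and 0 calls, and the median was -0.11 without replicate 2 and 0.02 without replicate 3. Nubpl, the relative of a human factor that delivers iron-sulphur clusters to complex I, had signals of 1615, 1629 and 1585 in 6xbcd embryos, against 2177, 2164 and 1966 in 2xbcd embryos. These stood apart, and the fitted log2 change was -0.38 (adjusted p = 0.0532 by limma, SE 0.057), while its other probe set had -0.11 (adjusted p = 0.845). Surf1, a complex IV assembly factor, had -0.20 without overlap (adjusted p = 0.384), and Coa8 had -0.13 with overlap (adjusted p = 0.357).

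In the list of citric acid cycle and pyruvate dehydrogenase genes, 12 of 18 genes had a tested probe set. Its median was 0.22, on the other side of 0 from the respiratory chain. Of its 15 probe sets, 12 were positive (52.7% of all tested probe sets) and 6 higher without overlap (7.38%), with 0 calls. The list is broader than its name, since it holds the cytosolic Mdh1, the NADP-dependent Idh and the kinase gene Pdk. The 1 pyruvate dehydrogenase subunit gene tested, muc, had -0.08. The mitochondrial aconitase mAcon1 had signals of 2385, 2349 and 2034 in 6xbcd embryos, against 1782, 1754 and 1657 in 2xbcd embryos, without overlap. Its log2 change was 0.38 (SE 0.058, adjusted p = 0.0564 by limma). Idh, the NADP-dependent isocitrate dehydrogenase, had 0.39 with overlap (adjusted p = 0.0598), and ScsbetaA, a subunit of succinyl-CoA synthetase, had 0.51 without overlap (adjusted p = 0.108). Glycolysis genes had a median of 0.21 with 9 of 11 probe sets positive and 0 calls, and the median was 0.40 without replicate 1 and 0.04 without replicate 3. The smallest adjusted p among them was 0.207, for a probe set of the aldolase Ald1 at a log2 change of 0.51, while the other probe set of Ald1 had 0.00 (adjusted p = 0.997). Pfk had 0.42 and Eno 0.14.

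Mitochondrial carriers and porin had 3 of 8 probe sets positive and a median of -0.11, which was 0.03 without replicate 3, led by Bmcp at -0.28 (adjusted p = 0.370 by limma), Mpc1 at 0.11 and Ucp4A at -0.36. Regulators of mitochondrial biogenesis had 10 of 13 positive and a median of 0.06. Among these, the RNA-binding protein gene bsf had 0.24 (adjusted p = 0.246), ewg, the fly relative of a vertebrate nuclear respiratory factor, had -0.16, and the mitochondrial DNA-binding protein gene mtSSB had 0.11. No gene of these 6 lists passed the test, and differences between the lists were not tested.

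**Figure D5:**
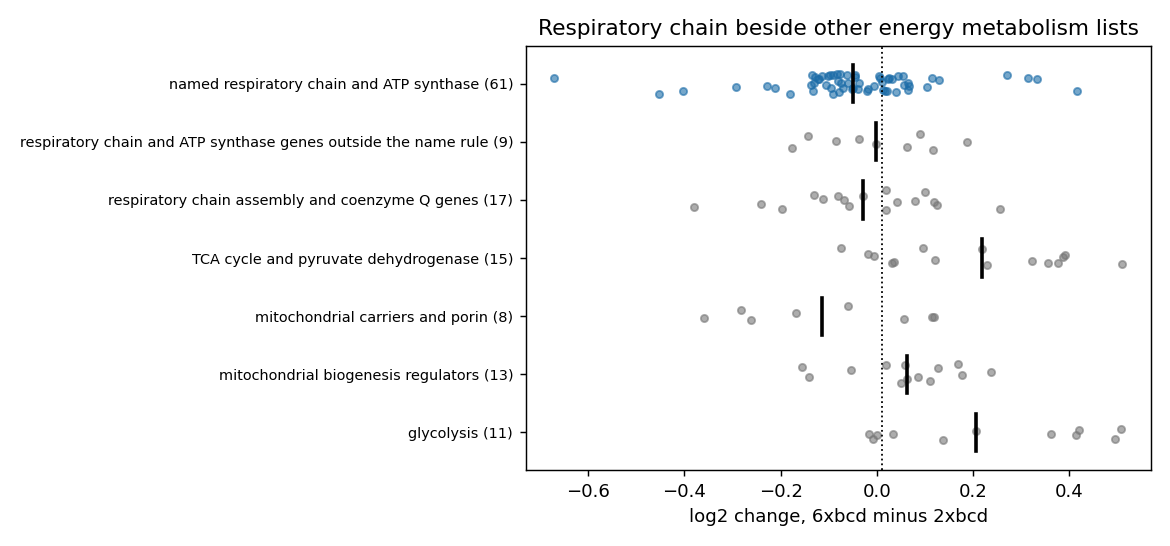
Log2 change, 6xbcd minus 2xbcd (horizontal axis), of the tested probe sets of the respiratory chain and ATP synthase members and of 6 other lists of energy metabolism genes; points are probe sets, solid lines are list medians and the dotted line is the median over all tested probe sets (0.01). The member median is -0.05, with those of citric acid cycle genes at 0.22 and glycolysis genes at 0.21 (0.04 to 0.40 with a replicate left out).

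Markers of tissues rich in mitochondria, and of others that whole embryos hold, gave 0 calls in 5 lists, in which 6 of 10 muscle, 3 of 6 neuronal, 3 of 6 midgut and yolk, 6 of 8 maternal and germ line and 5 of 7 late epidermal genes had a tested probe set. The summed signal of 6 muscle genes ranged over 6932 to 9734 on the 6xbcd arrays and 4153 to 12032 on the 2xbcd arrays. Their log2 changes had a median of 0.38, with 5 of 7 probe sets positive and 0 without overlap. In replicate order the muscle sums were 8416, 6932 and 9734 in 6xbcd embryos and 12032, 6788 and 4153 in 2xbcd embryos. In pair 1 every tested muscle probe set was lower in 6xbcd embryos, so the direction differed between the pairs. The sum of neuronal genes ranged over 10577 to 12433 on the 6xbcd arrays and 11743 to 13866 on the 2xbcd arrays, with nSyb absent on every array and elav present on all 6. In this sum elav alone had signals of 6901 to 9457. Of the 3 tested neuronal probe sets 0 were positive, with a median of -0.13, and 1 was lower without overlap (8.68% of all tested probe sets). Midgut and yolk genes summed to 4194 to 5054 on 6xbcd arrays and 3524 to 4261 on 2xbcd arrays, with Yp1, Yp2 and Yp3 absent on every array. Of their 3 tested probe sets 2 were positive, with a median of 0.26, and 1 was higher without overlap (7.38% of all tested probe sets). Maternal and germ line genes summed to 4920 to 5012 on 6xbcd arrays and 4681 to 4861 on 2xbcd arrays, which do not overlap. The brightest genes in this sum, gcl and stau, had negative log2 changes of -0.04 and -0.27, while 6 of the 8 tested probe sets were positive. The log2 changes of their 8 tested probe sets had a median of 0.64, and 5 were higher in 6xbcd embryos without overlap (7.38% of all tested probe sets), namely 3 of osk and 1 each of png and aub, while stau was lower without overlap. Their changes ranged from -0.27 for stau to 1.54 for png (adjusted p = 0.165 and 0.150 by limma), and swa, with overlap, had the smallest adjusted p of this list, 0.138, at 0.72. The png probe set and 1 of osk had a present call on 3 of 6 arrays, and another of osk on 4. The png signals in 2xbcd embryos were 19.2, 1.7 and 25.8, and all osk signals lay between 28.4 and 159.9. Probe sets this dim may have entered the test through their higher 6xbcd signals, and the 3 of osk stand for 1 gene. Late epidermal genes summed to 2749 to 4704 on 6xbcd arrays and 3579 to 5000.2 on 2xbcd arrays, with Cpr47Ea and ple absent on every array. Of their 5 tested probe sets 3 were positive, with a median of 0.08, and 0 were without overlap. The part of these 5 lists in the values of the respiratory chain was not tested.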

How the data were processed

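Total RNA from pools of embryos was measured on 6 Affymetrix Drosophila Genome 2.0 arrays, 3 per group. The deposited signals are intensity values on a linear scale that the authors obtained in GCOS, a tool named without a version in the submitters' processing notes. Leaving out 2% per end, the trimmed mean was 500 on every array, so a global scaling by the authors is in the values. Per the file headers, a deposited table also gives each array's detection call and, for each replicate pair, the p-value and call of a change and its log2 ratio.

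Gene symbols came from the array annotation, where 13646 probe sets had 1 symbol, 402 several and 4721 none, and 4 probe sets with several symbols that include a member prefix were not used. Chromosomes came from RefSeq genes (assembly Release 6 plus ISO1 MT). The 183 control probe sets were left out. Signals were used as log2(signal + 16) with no further normalization, which shrinks the folds of dim probe sets. Those called present on 3 or more of 6 arrays were tested with limma 3.58.1 in R 4.3.3 (lmFit, eBayes with an intensity trend, two-sided, 2 residual and 3.56 prior degrees of freedom), and tables and figures were made with Python 3.11.15. The fit was also run on simulated data in which the changes put in were larger than that of any tested member. That run says nothing about the detection of changes as small as those of the members. The replicate number was a block because the design text states paired experiments. After subtracting group means, arrays of the same number correlated at 0.437, 0.385 and -0.190 across probe sets, so the values themselves do not single out the pairs.

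The members, lists and tests were chosen with earlier results of these data known. The named genes are bcd, the 6 probe sets of each complex with the smallest p, the 5 largest changes in each direction, the paralogues and assembly factors, and the 3 genes of each pathway and marker list with the smallest p, of which the text gives those of the pathway lists and of the maternal and germ line markers. ND-51, ND-75, COX4, COX5A, ATPsynC, the further probe sets of genes with several, the other probe sets without overlap and those listed by call or chromosome lie outside this rule and were picked with their values in view. So were blw, gcl, stau, osk, muc, Mdh1, Pdk, the other Ald1 probe set, elav, nSyb and the remaining absent markers. A planned count of promoter motifs was not run, since no promoter sequences were used here.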

Additional observations from a re-analysis of the deposited data

How the results depend on the processing

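In every alternative tried (no replicate block, median scaling, quantile normalization, an offset of 1 or of 64, no filter, a present call on all 6 arrays, no intensity trend, a threshold of 0.1 and each replicate left out) between 0 and 2 of the tested members were called. ATPsyndelta was the member called with quantile normalization, with an offset of 64, with a present call on all arrays and at a threshold of 0.1 (1 each), and ATPsyndelta and UQCR-Q were called without replicate 3 (range 0 to 2 over the replicates left out). Without the replicate block 0 members were called, and 97 of all probe sets against 134. Over all probe sets the count was 5 without an intensity trend, 247 at a threshold of 0.1, and 10 to 270 with a replicate left out. Assembly and coenzyme Q genes gave 1 call with an offset of 64, 1 with a present call on all arrays, 1 at a threshold of 0.1, and 0 to 1 with a replicate left out. Citric acid cycle genes gave 1 call with quantile normalization, 2 with a present call on all arrays, 2 at a threshold of 0.1, and 0 to 1 with a replicate left out. With a replicate left out, the median of complex I was -0.083 to -0.028, of complex II -0.033 to 0.020, of complex III -0.102 to -0.0066, of complex IV -0.170 to -0.041, of complex V -0.025 to 0.066 and of glycolysis genes 0.045 to 0.403. The assembly and coenzyme Q median was then -0.115 to 0.021 and the carrier median -0.173 to 0.029. The count of members lower without overlap was 31 without replicate 1 (50.8%, against 20.7% of all tested probe sets). It was 15 without replicate 2 (24.6%, against 17.4%) and 17 without replicate 3 (27.9%, against 16.9%). With median scaling the level of the third 2xbcd array was 0.036 in place of 0.012. The median member differences of pairs 1, 2 and 3 were 0.019, -0.065 and -0.025 with quantile normalization. With median scaling they were 0.076, -0.113 and -0.161, so their size depends on the scaling while their signs were kept. The complex IV median was -0.044 with quantile normalization and -0.121 with median scaling. The cause of these changes was not tested.

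Of 489 alternative values of 41 named member probe sets, 18 had the other sign, none of them past the threshold. With median scaling these were SdhB at -0.0017 and a probe set of ATPsynbeta at -0.020, and with quantile normalization UQCR-14 at 0.017 and COX5A at 0.061. With a replicate left out, log2 changes ranged over -0.0087 to 0.051 for SdhB, -0.14 to 0.0024 for UQCR-14, -0.22 to 0.011 for COX7A, -0.028 to 0.59 for ND-B12, -0.22 to 0.031 for COX4L, -0.071 to 0.11 for COX4, -0.13 to 0.059 for COX5A and -0.025 to 0.11 for ATPsynC. For further probe sets of genes with several, they ranged over -0.060 to 0.024 for ND-ACP, -0.039 to 0.076 for ND-B17, -0.12 to 0.069 for COX7B, and -0.11 to 0.018 and -0.060 to 0.045 for ATPsynbeta. The planned count of promoter motifs was not run.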
